A study of Arabidopsis thaliana with 28 samples.

Results

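Aliphatic glucosinolates are sulfur-rich defence compounds that Arabidopsis leaves make from methionine. The 8 probe sets described here report genes of this pathway: BCAT4 (257021_AT), BASS5 (254862_AT), MAM1 (249866_AT), MAM3 (249867_AT), CYP79F1 and CYP79F2 together (262717_S_AT), CYP83A1 (254687_AT), MYB28 (247549_AT) and MYB29 (250598_AT). They were picked by gene name, with no measured value in the rule, from the 22747 probe sets in the deposited table. Earlier results of these data were known at that choice, so shares of members called are not those of an independent pick. The pairing of probe set and gene is the one given with that choice, since the deposited table holds probe set IDs alone. All 9 gene names were found in the RefSeq gene table for TAIR10.1, where BASS5 is listed as BAT5 (AT4G12030) and MAM3 as IMS2 (AT5G23020). In that table MAM1 (AT5G23010) and MAM3 are neighbours, with 0 coding genes between them, and so are CYP79F1 (AT1G16410) and CYP79F2 (AT1G16400).

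Methionine is first lengthened. BCAT4 removes its amino group in the cytosol, BASS5 carries the resulting keto acid into the chloroplast, and MAM1 and MAM3 are the synthases that add carbon to the chain, MAM3 being the one needed for the longest chains. CYP79F1 and CYP79F2 turn the lengthened amino acids into aldoximes, and CYP83A1 oxidises these to build the core of the glucosinolate. MYB28 and MYB29 are MYB transcription factors that activate the pathway's genes.

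The study measured shoots of 3-week-old Col-0 plants, untreated and harvested 4 h after lights came on in a 12 h light period, with 14 plants pooled per replicate. BAM7 and BAM8 are transcription factors of the nucleus that join a DNA-binding part to a part resembling beta-amylase, the starch-degrading enzyme. The series asks what that enzyme-like part does when the proteins bind DNA and activate genes. Its 28 arrays fall into 14 groups of 2 biological replicates: the BAM8 lines BAM8-DNA_Ox, BAM8-Cat_Ox, BAM8-Lig_Ox, BAM8-N_Ox and BAM8_Ox, the BAM7 lines BAM7-DNA_Ox, BAM7-Cat_Ox, BAM7-Lig_Ox, BAM7-N_Ox and BAM7_Ox, the double mutant bam7 bam8, the single mutants bam7 and bam8, and the wildtype. The labels do not define Ox or the suffixes DNA, Cat, Lig and N. The promoter, the host genotype and the number of independent lines per construct are not given in the sources used here.

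Levels are log2 values of the deposited array intensities, and a fold change is the difference of 2 such group means. A probe set was called changed at a Benjamini-Hochberg adjusted p under 0.05 in limma's two-sided moderated test, adjusted over all 22746 probe sets tested. Array medians lay between 23.5 and 25.8 intensity units and replicate arrays correlated across probe sets with r between 0.99 and 0.997. BAM7-Cat_Ox had the lowest correlation: its arrays were over 2-fold apart for 254 probe sets, and those of the other 13 groups for 6 to 78. All 8 probe sets lay above the 58.3rd percentile of their array on every array. No filter on low values was used, so all 8 were tested in every comparison. Transcripts of BAM7 and BAM8, markers of shoot tissue and the pathway's other genes were not analysed here, because no table used here pairs their probe sets with genes. In whole shoots, fewer cells of a type and less RNA per cell cannot be told apart.

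Of the 8 probe sets, BASS5 and MAM3 varied most among the genotypes. The difference among all 14 groups passed limma's moderated F-test for 5 of the 8 probe sets, against 6.15% of all probe sets: BASS5 (adjusted p 2.68e-05), MAM3 (0.00159), CYP83A1 (0.0106), MYB28 (0.035) and CYP79F1/F2 (0.0434). BCAT4 (adjusted p 0.204), MAM1 (0.194) and MYB29 (0.438) did not pass. The SD of the 14 group means was 0.77 for BASS5 and 0.40 for MAM3, and between 0.16 and 0.23 for the other 6. Those 6 values were above the SD of 71.6% (MAM1) to 91.6% (BCAT4) of all probe sets. The SD between replicate arrays was 0.28 for BASS5 and 0.20 for MAM3. This count was 3 without either array of bam8, BAM8-DNA_Ox, BAM7-N_Ox or BAM8_Ox, or without replicate 2 of bam7 or of bam7 bam8.

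In 29 comparisons of lines, 12 of 232 tests of a member passed, 5 with a higher and 7 with a lower level, while 0.707% of the tests of all probe sets passed. MAM3 accounted for 5 of them, BASS5 for 4, and BCAT4, CYP83A1 and MYB28 for 1 each. The MAM3 calls all use the BAM8_Ox arrays, and each BASS5 call uses arrays of an N line. The 12 calls are therefore not independent of each other, and the share over all probe sets is no test of them. Against wildtype alone, 4 of 104 tests passed, beside 0.64% of the tests of all probe sets, most of them in the N lines. BASS5 was lower in BAM7-N_Ox and BAM8-N_Ox, MAM3 was lower in BAM8_Ox, and BCAT4 was higher in BAM7-N_Ox. The shares of all probe sets called against wildtype depend on single arrays: without wildtype replicate 2 they were higher in all 13 comparisons, from 0.611% in BAM7-Cat_Ox to 6.46% in BAM8-N_Ox.

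**Figure D1:**
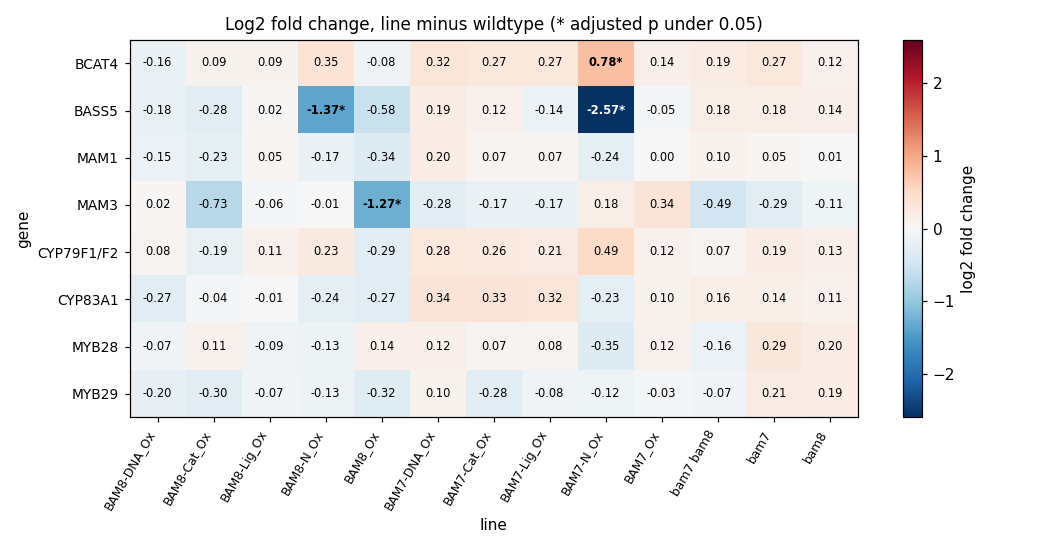
Log2 fold change of each probe set (rows) in each line (columns), line minus wildtype, with colour from blue (lower) to red (higher) and a star where the adjusted p is under 0.05. The 4 stars are BASS5 in BAM8-N_Ox (-1.37) and BAM7-N_Ox (-2.57), MAM3 in BAM8_Ox (-1.27) and BCAT4 in BAM7-N_Ox (0.78).

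BASS5, the transporter that supplies the chloroplast step of chain lengthening, fell in both N lines. Its log2 level was 5.95 and 5.65 on the BAM7-N_Ox arrays, against 8.46 and 8.27 in wildtype. On the BAM8-N_Ox arrays it was 7.53 and 6.46. All 4 N arrays lay below the other 24, which ranged from 7.76 to 8.85 with a median of 8.32. Relative to wildtype, BASS5 fell by 2.57 in BAM7-N_Ox (SE 0.25, a 5.92-fold lower level, adjusted p 9.31e-06) and by 1.37 in BAM8-N_Ox (SE 0.25, 2.59-fold lower, adjusted p 0.00484). In these comparisons 2.97% and 3.72% of all probe sets were called, 1.21% and 1.62% with a lower level.

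The fall in BAM7-N_Ox passed in all 11 alternatives, with adjusted p between 5.78e-07 and 0.0172. The fall in BAM8-N_Ox was -0.84 without its replicate 2 (adjusted p 0.0639) and -1.28 without wildtype replicate 1 (adjusted p 0.0586), and it also lost the call when only these groups were fitted (adjusted p 0.187).

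Against BAM7_Ox, where BASS5 stood at 8.27 and 8.37, the level in BAM7-N_Ox was lower by 2.52 on the log2 scale, a fold change of -2.52 (SE 0.25, adjusted p 1.12e-05, 3.09% of all probe sets called and 1.56% lower). BAM8_Ox itself had BASS5 values of 7.81 and 7.76, below the 22 arrays of the 11 groups outside the N lines and BAM8_Ox (8.05 to 8.85). Its change against wildtype, -0.58 (SE 0.25), did not pass (adjusted p 0.557). The BASS5 change in BAM8-N_Ox against BAM8_Ox, -0.79 (95% interval -1.32 to -0.26), did not pass either (adjusted p 0.154). It was -1.33 and called without BAM8-N_Ox replicate 1 (adjusted p 0.00667), and -0.25 and not called without BAM8-N_Ox replicate 2.

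Between the N lines, BASS5 was higher in BAM8-N_Ox than in BAM7-N_Ox by 1.19 (SE 0.25, adjusted p 0.027, with 0.813% of all probe sets called and 0.391% higher). The arrays of the lines did not overlap, but those of BAM8-N_Ox differed from each other by 1.07, the widest replicate gap of any member in any group. Without BAM8-N_Ox replicate 1 the difference was 0.66 (adjusted p 0.465). Leaving out either BAM7-N_Ox array also ended the call (1.34 and 1.04, adjusted p 0.0664 and 0.253), as did fitting these lines alone (adjusted p 0.47).

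For the other lines BASS5 stayed near its wildtype level. Its 2 values were 8.71 and 8.41 in BAM7-DNA_Ox, 8.85 and 8.11 in BAM7-Cat_Ox, and 8.22 and 8.22 in BAM7-Lig_Ox. They were 8.17 and 8.20 in BAM8-DNA_Ox, 8.05 and 8.12 in BAM8-Cat_Ox, and 8.22 and 8.55 in BAM8-Lig_Ox. The mutants had 8.69 and 8.39 (bam7 bam8), 8.50 and 8.60 (bam7), and 8.50 and 8.51 (bam8). None of these 9 lines passed against wildtype, with changes between -0.28 (BAM8-Cat_Ox) and 0.19 (BAM7-DNA_Ox). Ordered by mean, the 8 highest groups, from BAM7-DNA_Ox (8.56) to BAM7_Ox (8.32), overlapped each with its neighbour. In each of the 6 neighbour pairs below these the arrays were apart, with gaps between means from 0.04 (BAM7-Lig_Ox and BAM8-DNA_Ox) to 1.19 (BAM8-N_Ox and BAM7-N_Ox). The share of such pairs over all probe sets was not computed, and with 2 arrays per group a small gap can set arrays apart.

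**Figure D2:**
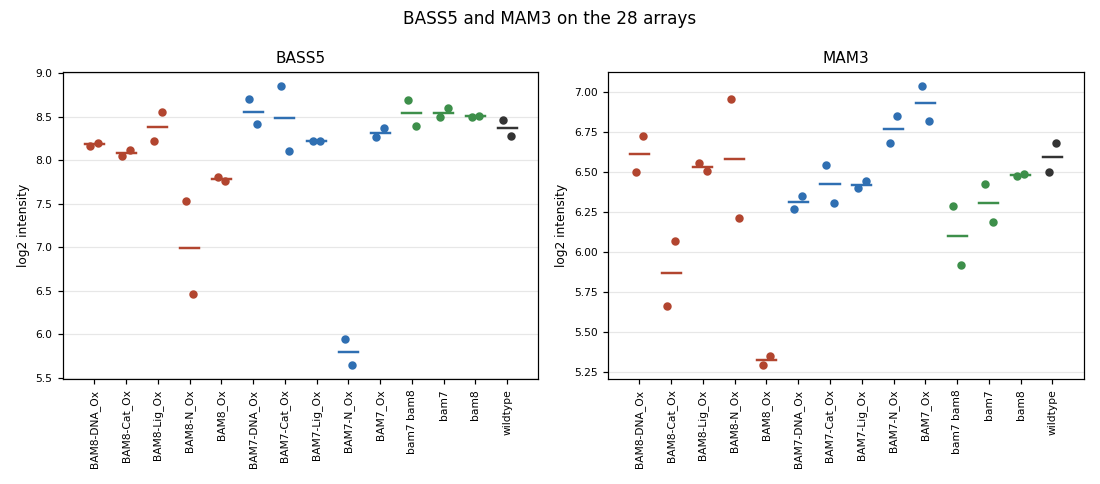
Log2 intensity of BASS5 (left) and MAM3 (right) on each of the 28 arrays (points) with the mean of the 2 arrays of each group (bars), BAM8 lines in red, BAM7 lines in blue, mutants in green and wildtype in black. The 4 N arrays lie lowest for BASS5 (5.65 to 7.53), and the BAM8_Ox arrays lie lowest for MAM3 (5.30 and 5.35).

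MAM3, the chain-elongating synthase needed for long-chain products, was lowest in BAM8_Ox. Its log2 level there was 5.30 and 5.35, against 6.50 and 6.68 in wildtype, and the other 26 arrays ranged from 5.66 to 7.04 with a median of 6.48. The BAM8_Ox arrays were thus below every other array. MAM3 fell by 1.27 relative to wildtype (SE 0.19, 2.41-fold lower, adjusted p 0.00188), where 0.448% of all probe sets were called, 0.132% with a lower level. This call held in 10 of 11 alternatives and was lost when only the BAM8_Ox and wildtype arrays were fitted (adjusted p 0.179).

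BAM7_Ox had the highest mean of MAM3 among the 14 groups, with values of 7.04 and 6.82. Set against BAM7_Ox, MAM3 in BAM8_Ox was lower, with a change of -1.61 (SE 0.19, 3.05-fold lower, adjusted p 0.000192), against 0.374% of all probe sets called and 0.127% lower, and this passed in all 11 alternatives. The change of BAM7_Ox itself against wildtype, 0.34 (95% interval -0.06 to 0.73), did not pass (adjusted p 0.428).

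The suffixed BAM8 lines differed in how far MAM3 stood from BAM8_Ox. It was 6.50 and 6.73 in BAM8-DNA_Ox, 6.56 and 6.51 in BAM8-Lig_Ox, and 6.96 and 6.21 in BAM8-N_Ox, all above both BAM8_Ox arrays. MAM3 was higher than in BAM8_Ox by 1.29 in BAM8-DNA_Ox (SE 0.19, adjusted p 0.00134), by 1.21 in BAM8-Lig_Ox (SE 0.19, adjusted p 0.00279) and by 1.26 in BAM8-N_Ox (SE 0.19, adjusted p 0.00112). In these comparisons 0.73%, 0.813% and 1.68% of all probe sets were called, 0.237%, 0.382% and 0.972% with a higher level. These 3 comparisons share the BAM8_Ox arrays. In all 3 lines MAM3 was close to wildtype, with changes of 0.02, -0.06 and -0.01 and 95% intervals within -0.46 to 0.42.

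When only the groups compared were fitted, the MAM3 call was lost for BAM8-DNA_Ox (adjusted p 0.0629) and BAM8-N_Ox (adjusted p 0.271) against BAM8_Ox. Without the 4 arrays of lowest 25th percentile it was lost for BAM8-DNA_Ox (adjusted p 0.0764) and BAM8-Lig_Ox (adjusted p 0.0504), each of which then held 1 array.

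BAM8-Cat_Ox was the BAM8 line between these levels. Its MAM3 values of 5.66 and 6.07 lay above those of BAM8_Ox and below those of wildtype. Neither difference passed: the change was 0.54 against BAM8_Ox (95% interval 0.15 to 0.94, adjusted p 0.475, 0.106% of all probe sets called) and -0.73 against wildtype (95% interval -1.12 to -0.33, adjusted p 0.113, 0.594% called).

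In the suffixed BAM7 lines MAM3 stood at 6.27 and 6.35 (BAM7-DNA_Ox), 6.54 and 6.31 (BAM7-Cat_Ox), 6.40 and 6.45 (BAM7-Lig_Ox), and 6.69 and 6.85 (BAM7-N_Ox). All 3 of the DNA, Cat and Lig lines were below both BAM7_Ox arrays, by values of -0.62, -0.50 and -0.51, and none passed (adjusted p 0.209, 0.137 and 0.333). The percentages of all probe sets called were 0.444%, 1.6% and 0.193%. BAM7-N_Ox differed from BAM7_Ox in MAM3 by -0.16 (95% interval -0.56 to 0.23, adjusted p 0.96).

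Whether a suffix went with a different change in BAM8 than in BAM7 was tested as the difference of these differences, 4 comparisons added after the data were seen. MAM3 passed for DNA, Lig and N and BASS5 for N, 4 of 32 tests, with differences between 1.42 and 1.91. All rest on the same arrays of BAM8_Ox, lowest for MAM3, and of BAM7_Ox, highest by mean. The suffixed lines themselves were closer in MAM3, with BAM8 and BAM7 means of 6.61 and 6.31 (DNA), 6.53 and 6.42 (Lig) and 6.58 and 6.77 (N). MAM3 did not pass between them. The shares of all probe sets called were 0.264% (DNA), 0.0044% (Cat), 0.519% (Lig) and 0.55% (N), and those called with a positive difference were 0.0967%, 0.246% and 0.233% for DNA, Lig and N.

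**Figure D3:**
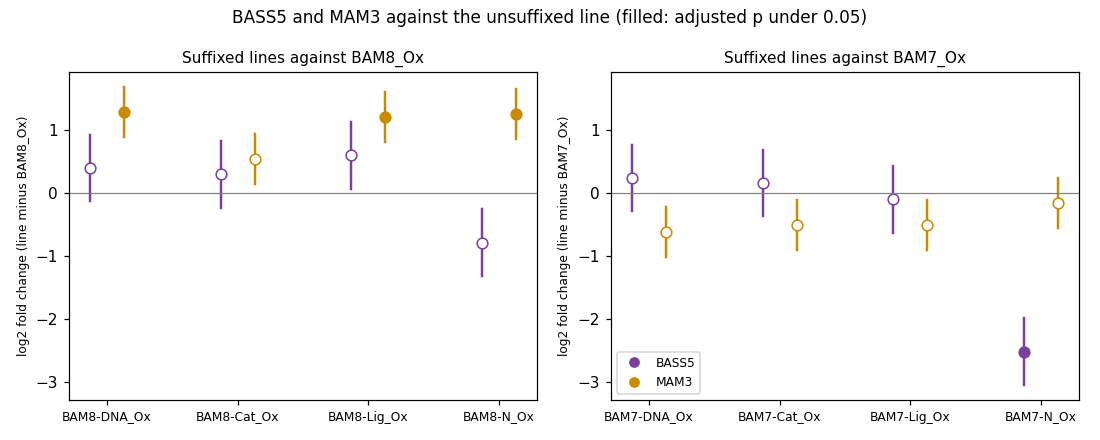
Log2 fold change of BASS5 (purple) and MAM3 (ochre) in each suffixed line against BAM8_Ox (left) or BAM7_Ox (right), with 95% intervals as lines and filled points where the adjusted p is under 0.05. MAM3 is filled in BAM8-DNA_Ox, BAM8-Lig_Ox and BAM8-N_Ox (1.21 to 1.29), and BASS5 in BAM7-N_Ox (-2.52).

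BCAT4, the aminotransferase at the entry to chain lengthening, rose in BAM7-N_Ox, the line in which BASS5 was lowest. Its values were 10.24 and 10.21, against 9.39 and 9.50 in wildtype, and the other 26 arrays ranged from 9.26 to 10.03. The rise was 0.78 (SE 0.20, 1.72-fold, adjusted p 0.044), where 1.76% of all probe sets were called higher. It lost the call in 6 of 11 alternatives, 4 of which left out a wildtype or BAM7-N_Ox array (adjusted p 0.0748 to 0.242), although its size stayed between 0.73 and 0.84. Against BAM7_Ox (9.65 and 9.51) the rise of 0.65 did not pass (adjusted p 0.107). It was called in 1 of 11 alternatives, when only these groups were fitted (adjusted p 0.0331). In BAM8-N_Ox the values were 10.03 and 9.56 and the change against wildtype, 0.35, did not pass (adjusted p 0.309).

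MAM1, the synthase encoded beside MAM3, did not pass in any of the 29 comparisons. Its 28 values ranged from 10.29 to 11.04 with a median of 10.72. The lowest mean was that of BAM8_Ox (10.37, arrays at 10.44 and 10.29), against 10.85 and 10.57 in wildtype. That change was -0.34 (adjusted p 0.497), beside the change of -1.27 for MAM3 in the same line. No neighbouring groups in the order of MAM1 levels had arrays that were apart, though the share over all probe sets was not computed.

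The probe set shared by CYP79F1 and CYP79F2, which make the aldoximes, was highest in BAM7-N_Ox and lowest in BAM8_Ox. Since it reports both genes, their transcripts cannot be told apart. Its values were 7.72 and 7.95 in BAM7-N_Ox, against 7.36 and 7.33 in wildtype, a change of 0.49 that did not pass (SE 0.13, adjusted p 0.0518). In BAM8_Ox it had 7.03 and 7.08, below wildtype by a change of -0.29 (adjusted p 0.594). BAM8-N_Ox (7.72 and 7.42) stood above BAM8_Ox by 0.52, which also did not pass (SE 0.13, adjusted p 0.0537).

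CYP83A1, which oxidises the aldoximes, was lower in BAM8-DNA_Ox than in BAM7-DNA_Ox. It was 9.97 and 10.04 in BAM8-DNA_Ox, against 10.66 and 10.56 in BAM7-DNA_Ox, a change of -0.61 (SE 0.13, adjusted p 0.045, with 0.347% of all probe sets called and 0.237% lower). This call was lost in 7 of 11 alternatives, with the change between -0.66 and -0.55. For Cat, Lig and the unsuffixed lines, CYP83A1 was also lower in BAM8 than in BAM7 with changes of -0.37, -0.33 and -0.37, and for N the change was -0.01. None of these passed (adjusted p 0.158, 0.352, 0.321 and 1), where 1.51%, 0.215%, 0.374% and 0.813% of all probe sets were called. Wild type arrays were at 10.27 and 10.27, and no line passed against them, the changes running from -0.27 in BAM8-DNA_Ox to 0.34 in BAM7-DNA_Ox.

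MYB28, an activator of the pathway, had its lowest level in BAM7-N_Ox. It stood at 8.46 and 8.32 there, against 8.76 and 8.95 in BAM7_Ox, a fall with a change of -0.47 (SE 0.11, adjusted p 0.0239). This call was lost in 5 of 11 alternatives, among them leaving out BAM7-N_Ox replicate 1 (adjusted p 0.0502), BAM7-N_Ox replicate 2 (0.232) or BAM7_Ox replicate 2 (0.228). Against the wildtype values of 8.75 and 8.72 the change was -0.35 and did not pass (adjusted p 0.11). The other 26 arrays ranged from 8.47 to 9.14.

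MYB29, the other activator, did not pass in any comparison. Its 28 values ran from 6.47 to 7.36, and its replicate arrays differed by up to 0.56 (BAM8_Ox, 7.03 and 6.47). Its SD between replicate arrays, 0.20, was larger than the SD of its group means, 0.17.

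**Figure D4:**
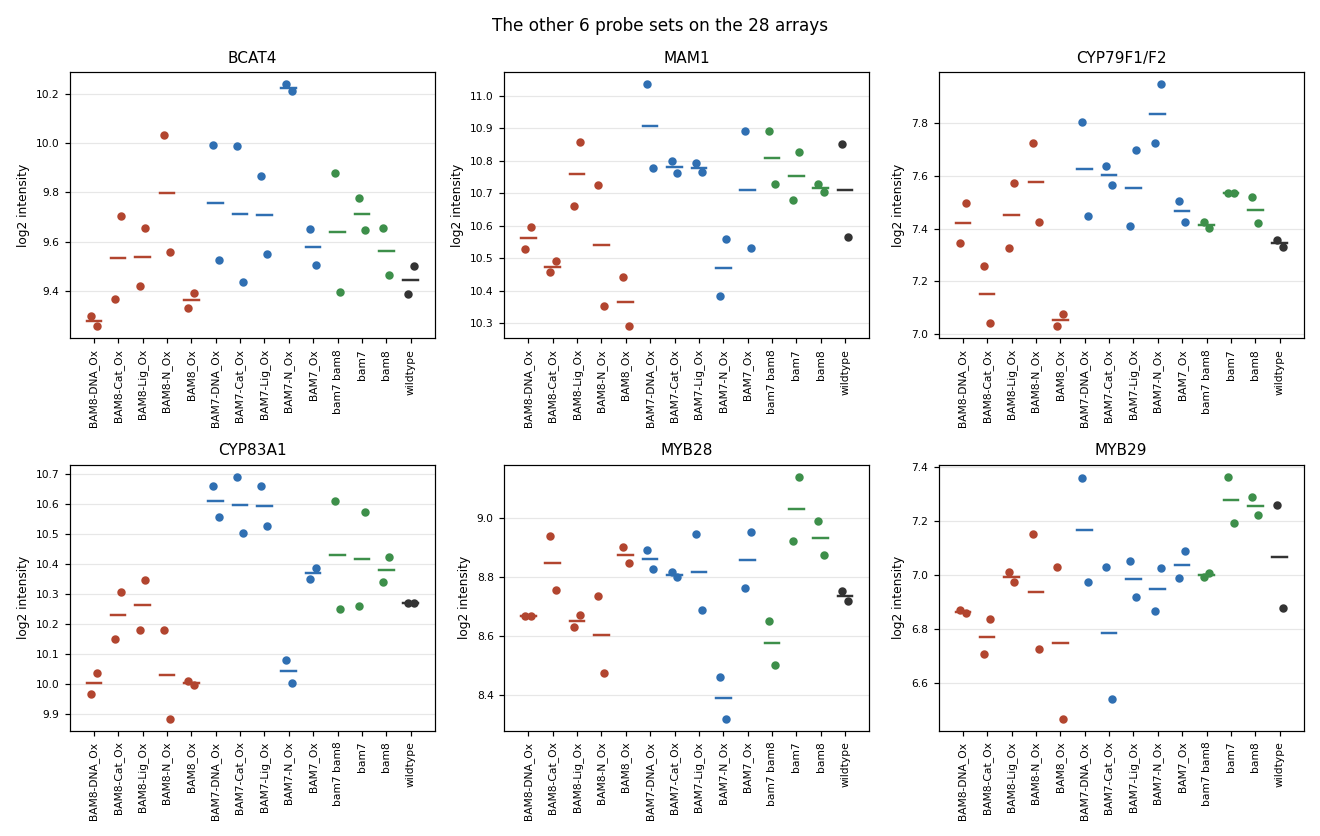
Log2 intensity of the 6 other probe sets on each of the 28 arrays (points) with group means (bars), in the colours and order used for BASS5 and MAM3 and with a separate scale in each panel. BCAT4 is highest in BAM7-N_Ox (10.24 and 10.21), and CYP83A1 lies between 9.97 and 10.04 in BAM8-DNA_Ox, against 10.66 and 10.56 in BAM7-DNA_Ox.

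Loss of BAM7, BAM8 or both changed none of the 8 probe sets at the threshold. None of the 24 tests against wildtype, the 16 tests of the double mutant against the single mutants or the 8 tests of the interaction of both mutations passed in limma. The shares of all probe sets called were 0.0572% for bam7, 0.0044% for bam8 and 0.18% for bam7 bam8 against wildtype, and 2.07%, 0.642% and 1.11% without wildtype replicate 2. With all arrays they were 0.0747% and 0.136% for bam7 bam8 against bam7 and bam8, and 0.0484% for the interaction (0.321% without wildtype replicate 2). At an unadjusted p under 0.05, the members that passed against wildtype numbered 1 for bam7, 0 for bam8 and 1 for the double mutant, where 13.9%, 6.4% and 9.65% of all probe sets did. They numbered 1 in each comparison of the double with a single mutant and 1 for the interaction, where 6.16% (bam7), 7.08% (bam8) and 8.16% (interaction) of all probe sets did. A count of 1 of 8 is near these shares. The counts of called members stayed at 0 in every alternative run.

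MAM3 had the largest change of the 8 in the double mutant against wildtype, and MYB28 the largest against bam7 and in the interaction. MAM3 was 6.29 and 5.92 in bam7 bam8, against 6.50 and 6.68 in wildtype, a change of -0.49 (95% interval -0.89 to -0.09, adjusted p 0.398). MYB28 was 8.65 and 8.50 in bam7 bam8, against 8.92 and 9.14 in bam7, 8.99 and 8.87 in bam8 and 8.75 and 8.72 in wildtype. It was thus below every single mutant and wildtype array in bam7 bam8, and above every wildtype array in both single mutants. How many of all probe sets show such an order was not counted, and MYB28 was singled out here by its size of change. The changes of MYB28 were -0.45 against bam7 (adjusted p 0.272) and -0.36 against bam8 (adjusted p 0.333). Its interaction was -0.65 (95% interval -0.98 to -0.32) and did not pass (adjusted p 0.204).

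As a set, the probe sets lay mostly below wildtype in BAM8_Ox, BAM8-DNA_Ox, BAM8-Cat_Ox and BAM8-N_Ox. They lay mostly above it in BAM7-DNA_Ox, BAM7-Cat_Ox, BAM7_Ox and the single mutants. In BAM8_Ox, 7 of 8 changes were negative with a median of -0.30, against -0.02 over all probe sets, and 1 was called (0.448% of all probe sets). In BAM7-DNA_Ox, 7 of 8 were positive with a median of 0.20, against -0.04 over all probe sets, and 0 were called (0.141% of all probe sets). BAM7-Cat_Ox and BAM7-Lig_Ox had 6 and 5 positive changes with medians of 0.09 and 0.07, and 0 called (0.0659% and 0.0264% of all). In BAM7_Ox 6 were positive, with a median of 0.11 and 0 called (0.0264% of all). In bam7 and bam8, 7 of 8 were positive in each, with medians of 0.19 and 0.12. The double mutant bam7 bam8 had 5 positive and 3 negative changes, with a median of 0.09. BAM8-DNA_Ox, BAM8-Cat_Ox and BAM8-Lig_Ox had 6, 6 and 4 negative changes with medians of -0.16, -0.21 and 0.01 with 0 called (0.0528%, 0.594% and 0.0308% of all). In the lines other than BAM8_Ox, BAM7-DNA_Ox and the N lines, the medians over all probe sets lay between -0.05 (BAM8-DNA_Ox) and 0.02 (BAM7-Cat_Ox). These comparisons share the wildtype arrays, and the 8 probe sets share the 2 pools of a line, so they are not replicates of it. Between those pools the members' median difference was 0.28 in BAM7-DNA_Ox and 0.21 in BAM7-Cat_Ox. It was -0.05 in BAM8-DNA_Ox, -0.10 in BAM8-Cat_Ox and 0.03 in BAM8_Ox.

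The members' changes were spread widely in the N lines. In BAM7-N_Ox, changes against wildtype ran from -2.57 (BASS5) to 0.78 (BCAT4), with 5 negative and 3 positive and a median of -0.17. In BAM8-N_Ox they ran from -1.37 (BASS5) to 0.35 (BCAT4), with 6 negative and 2 positive and a median of -0.13. The medians over all probe sets were -0.05 in BAM7-N_Ox and -0.06 in BAM8-N_Ox. Across the 14 group means the Pearson correlation of BASS5 with BCAT4 was -0.64, and without the N lines, over 12 groups, it was 0.66. Over all 28 pairs of members the median correlation was 0.34 across 14 groups and 0.58 across 12. The values share arrays and their normalization, and 14 group means are few. Of the pairs over 12 groups, BCAT4 with CYP83A1 (0.95), BASS5 with MAM1 (0.90) and MAM1 with CYP79F1/F2 (0.90) were closest, whereas MYB28 had correlations between -0.14 and 0.37 with the other 7.

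Levels also differed between the pools of a single line. In BAM8-N_Ox and in BAM7-Cat_Ox all 8 probe sets were higher on replicate 1 than on replicate 2, with median differences of 0.40 and 0.21, while the medians over all probe sets were 0 and -0.05. In BAM7-DNA_Ox and bam7 bam8, 7 of 8 were higher on replicate 1, with median differences of 0.28 and 0.23. In BAM7-Cat_Ox the widest gap was that of BASS5 (0.74). Conversely, 6 of 8 were higher on replicate 2 in BAM8-Cat_Ox and BAM8-Lig_Ox. Across the 14 groups, the replicate difference of one member correlated positively with that of another in 27 of 28 pairs, with a median of 0.43 and the highest value, 0.76, for BASS5 with CYP83A1. These correlations were not computed for other probe sets, so they cannot be called particular to the members. The source of these differences was not tested.

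**Figure D5:**
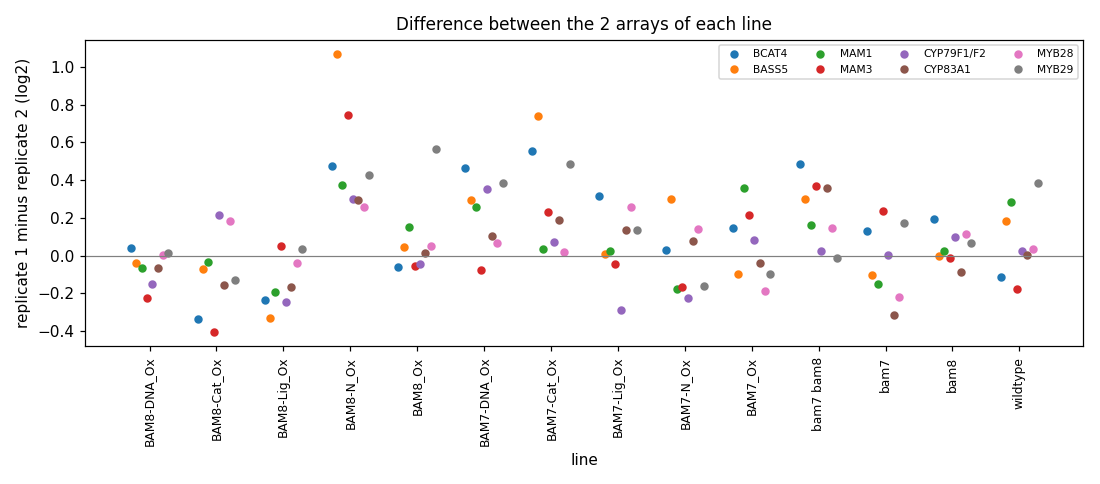
Log2 level on replicate 1 minus that on replicate 2 in each line (columns), with a coloured point for each of the 8 probe sets. All 8 points lie above 0 in BAM8-N_Ox and BAM7-Cat_Ox, and BASS5 in BAM8-N_Ox is the largest at 1.07.

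Among all other probe sets, 252870_AT and 260745_AT followed the members' mean profile most closely over the 14 group means, with Pearson correlations of 0.93 and 0.91. Their group means ran from 7.70 in BAM8_Ox to 8.60 in BAM7-DNA_Ox and from 11.47 in BAM8_Ox to 11.82 in bam7. The most opposed were 258535_AT (-0.89) and 260856_AT (-0.87), both highest in BAM8-Cat_Ox. Of the members themselves, MAM1 (0.89) and CYP83A1 (0.83) were nearest to the mean profile, and BCAT4 (0.31) and MYB28 (0.34) farthest. Each member is part of that mean, which raises its value, so these are not comparable with the values of other probe sets.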

How the data were processed

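The authors deposited 1 linear intensity for each probe set on each array. Per the submitters' processing notes RMA was used; its version and other steps are not given in the sources used here. For testing, log2 was taken with no pseudocount, and 1 control probe set was left out, leaving 22746. In limma 3.58.1 (R 4.3.3), a model with a mean for every group took in the 28 arrays (14 residual degrees of freedom, 3.67 added by the prior), and 29 contrasts were tested, with 4 more added after the data were seen. Over all probe sets the median SE of a fold change between 2 groups was 0.139 (log2), and the number of arrays limits the precision. It is larger for the interaction and the suffix differences. Whether replicates came from separate sowings is not stated, so p-values measure the spread between these pools. The members, lists and tests were chosen with earlier results of these data known. The fit was tested on simulated data.

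All 8 members were described. Other probe sets were named by their correlation with the mean of the scaled members over group means, at most 2 on each side. The alternatives were fitting the compared groups alone, dropping the 7582 probe sets of lowest mean, limma-trend made robust, the replicate number as block, cyclic loess, array weights, leaving out each array and, added after seeing the data, leaving out the 4 arrays of lowest 25th percentile. A group left with 1 array is assumed to vary like the others. Replicate numbers come from the labels, and deviations of same-numbered arrays correlated above 0.1 in 24 of 91 pairs of groups, from -0.38 to 0.43, so they were not taken as pairs. The lists of 56 other loci, markers included, were not tested because no table used here pairs them with probe sets. Matplotlib 3.10.9 (Python 3.11.15) drew the figures.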

Additional observations from a re-analysis of the deposited data

Results flagged for a closer look

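The BAM7 and BAM8 lines carried the same suffixes. The change that went with a suffix was compared between them as (BAM8 line minus BAM8_Ox) minus (BAM7 line minus BAM7_Ox). The suffix, the transcript level of BAM7 or BAM8 and the line itself cannot be told apart here. These comparisons were added after the data were seen. Of 32 such tests 4 passed in limma, all positive and all for MAM3 or BASS5. MAM3 differed for DNA by 1.91 (SE 0.27, adjusted p 0.00255, 0.264% of all probe sets called), for Lig by 1.72 (SE 0.27, adjusted p 0.00488, 0.519%) and for N by 1.42 (SE 0.27, adjusted p 0.0168, 0.55%). For Cat the difference of MAM3 was 1.05 and did not pass (adjusted p 0.205, 0.0044%). Without BAM7-Cat_Ox replicate 1 it was called (adjusted p 0.0402), with 3.55% of all probe sets called. All 4 values rest on the same arrays of BAM8_Ox, the lowest for MAM3, and of BAM7_Ox, the highest by mean. BASS5 differed for N by 1.73 (SE 0.36, adjusted p 0.0347).

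Without the 4 arrays of lowest 25th percentile, which include BAM7_Ox replicate 1, none of the 4 passed, with MAM3 at 1.69 (DNA, adjusted p 0.129), 1.58 (Lig, 0.128) and 1.31 (N, 0.17) and BASS5 at 1.78 (adjusted p 0.203). The BASS5 difference was 1.19 without BAM8-N_Ox replicate 1 (adjusted p 0.151), and it lost the call in 9 of 15 alternatives, the MAM3 difference for N in 6 of 15 and the others in 1 of 15 each. In groups of 2 arrays no single array was tested as an outlier.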

How the results depend on the processing

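Of the 192 alternative values of the 16 called member results, 144 kept the call. None reversed, but most alternatives could not reverse a result. Fitting the compared groups alone, dropping probe sets, limma-trend, the replicate block and array weights leave the fold change as it was. Leaving out an array cannot reverse a difference between groups whose arrays do not overlap. Fitting only the groups compared ended 10 calls. It left 1 call of BAM7 lines against wildtype (2 in the report), 0 of BAM8 lines against wildtype (2), 1 of suffixed BAM8 lines against BAM8_Ox (3), 1 of BAM8 against BAM7 lines (3) and 2 of the suffix differences (4). The count for suffixed BAM7 lines against BAM7_Ox stayed at 2. There MYB28 in BAM7-N_Ox lost its call (adjusted p 0.115 in limma) and BCAT4 in that line gained one (adjusted p 0.0331). That fit has fewer arrays to estimate the spread. Leaving out the 4 arrays of lowest 25th percentile (replicate 1 of BAM7_Ox, bam7 and BAM8-Lig_Ox, and replicate 2 of BAM8-DNA_Ox), chosen after seeing the data, also ended 10 calls. It left 1 call of BAM7 lines against wildtype, 1 of suffixed BAM7 lines against BAM7_Ox (2 in the report), 1 of suffixed BAM8 lines against BAM8_Ox, 1 of BAM8 against BAM7 lines, 0 suffix differences and 3 members in the F-test (5). It removes arrays, and other causes were not tested.

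Leaving out single arrays gave 1 to 3 calls of BAM7 lines and 1 to 3 of BAM8 lines against wildtype, 1 to 2 and 3 to 4 of suffixed BAM7 and BAM8 lines against the unsuffixed line, 1 to 3 of BAM8 against BAM7 lines, 2 to 5 suffix differences and 3 to 5 members in the F-test. The mutant counts were 0 to 0. With the replicate block 2 calls of BAM8 against BAM7 lines and 4 members in the F-test were left, since CYP83A1 in BAM8-DNA_Ox against BAM7-DNA_Ox lost its call (adjusted p 0.0556) and 1 member its F-test; the other counts equalled those in the report. Of 248 results not called, 5 were called in at least 1 alternative.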
